A study of Mus musculus with 12 samples.

Results

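The Cyp3a family of cytochromes P450 was followed across 12 livers of male C57Bl/6J mice aged 16 weeks. The members were taken by name: Cyp3a11, Cyp3a13, Cyp3a16, Cyp3a25, Cyp3a41a, Cyp3a44 and Cyp3a59, 7 of the 52636 genes counted. A mean count of at least 12 per library was reached by 12453 genes and by 4 of the 7 members, namely Cyp3a11, Cyp3a25, Cyp3a13 and Cyp3a59. The other 3 members were near the detection limit in every liver and entered no test. The mothers of the 6 VDD-F1 mice ate a diet without vitamin D and with added calcium gluconate (VDD diet) from before mating until delivery, and those of the 6 VDS-F1 mice ate a sufficient (VDS) diet. Mothers of both groups received the VDS diet once the pups were born, and so did the offspring after weaning, and per the study the VDD-F1 pups remained short of vitamin D for a time after birth. Which mice shared a litter is not given in the sources used here.

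A liver weight was recorded by the study for 7 of the 12 mice. These were VDD4, VDD5 and VDD6 and VDS3, VDS4, VDS5 and VDS6. The other 5, VDD1, VDD2, VDD3, VDS1 and VDS2, had none. The family was compared by maternal diet and between these sets of mice, which are called recorded and unrecorded below. Why a weight is missing is not given, and what else differed between the sets cannot be told apart from the set itself.

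The cytochromes P450 of family 3A sit in the endoplasmic reticulum of hepatocytes, take electrons from P450 oxidoreductase and oxidise a very wide range of drugs, steroids and bile acids. Transcription of the main adult genes is raised by the xenobiotic receptors Pxr (Nr1i2) and Car (Nr1i3), and some CYP3A genes also respond to the vitamin D receptor Vdr. Enzymes of the family can hydroxylate vitamin D metabolites. In mouse liver, Cyp3a11 is the main adult form and is often taken as the counterpart of human CYP3A4. Cyp3a13 is also expressed in the intestine. Cyp3a41a and Cyp3a44 are predominantly female genes, and Cyp3a16 is best known from fetal and newborn liver.

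All 7 genes lie on chromosome 5 of GRCm38 (mm10). Cyp3a13 stands alone at chr5:137892932-137921619, on the minus strand. The other 6 form a cluster: Cyp3a16 at chr5:145436309-145469723, Cyp3a41a at chr5:145694049-145720136, Cyp3a44 at chr5:145773983-145805874, Cyp3a11 at chr5:145854426-145879964 and Cyp3a25 at chr5:145977194-146009618 on the minus strand, and Cyp3a59 at chr5:146079257-146113287 on the plus strand. Among the 7 members, Cyp3a59 and Cyp3a25 had the most similar pair of coding sequences, with 97.49% identity over bases. The coding sequence of Cyp3a11 was 92.81 to 95.18% identical to those of Cyp3a16, Cyp3a41a and Cyp3a44, but only 76.12% and 75.73% identical to Cyp3a25 and Cyp3a59. Cyp3a13 was 75.2 to 76.82% identical to the other members.

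The DNA just upstream of the genes is shown because members with nearly the same upstream sequence differed in level between the sets. The sequences are from RefSeq (GRCm38.p6), 5′ to 3′ on the strand of each gene and ending at the base before its RefSeq start, with any base inside the annotated gene left out. Capitals mark matches, on either strand, to the nuclear receptor half-sites AGGTCA and AGTTCA. Cyp3a25 is chr5:146009619-146009868, Cyp3a59 is chr5:146079008-146079256, Cyp3a11 is chr5:145879965-145880104 and Cyp3a44 is chr5:145805875-145806124.
Cyp3a25: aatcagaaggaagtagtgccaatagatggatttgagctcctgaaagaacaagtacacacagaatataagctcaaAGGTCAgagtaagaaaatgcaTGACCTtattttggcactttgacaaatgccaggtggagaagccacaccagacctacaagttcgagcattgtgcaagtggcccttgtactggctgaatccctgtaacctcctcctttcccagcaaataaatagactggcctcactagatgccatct
Cyp3a59: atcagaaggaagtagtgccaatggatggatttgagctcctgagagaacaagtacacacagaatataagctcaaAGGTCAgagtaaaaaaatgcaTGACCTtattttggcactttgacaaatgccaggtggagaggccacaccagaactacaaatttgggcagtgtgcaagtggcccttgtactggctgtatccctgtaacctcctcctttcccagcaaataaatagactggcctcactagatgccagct
Cyp3a11: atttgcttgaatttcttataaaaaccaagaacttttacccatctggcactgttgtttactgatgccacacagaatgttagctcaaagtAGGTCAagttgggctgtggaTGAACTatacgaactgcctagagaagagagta
Cyp3a44: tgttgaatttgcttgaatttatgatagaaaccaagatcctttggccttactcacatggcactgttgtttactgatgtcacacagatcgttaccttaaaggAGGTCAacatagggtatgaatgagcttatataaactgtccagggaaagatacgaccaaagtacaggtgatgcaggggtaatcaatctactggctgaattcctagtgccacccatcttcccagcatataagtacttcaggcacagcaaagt

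The upstream windows of Cyp3a25 and Cyp3a59 were 94.82% identical and held the same pair of AGGTCA matches in opposite orientations. Those of Cyp3a41a and Cyp3a44 were 94.4% identical to each other and 71.7% identical to that of Cyp3a11. AGGTCA was found in 4 of the 7 windows of 250 bases (Cyp3a11, Cyp3a25, Cyp3a44 and Cyp3a59) and in 13.8% of the windows of 27025 genes. AGTTCA was found in 2 of 7 (Cyp3a11 and Cyp3a41a) and in 11.9% of all windows. CAAAGTCCA, an HNF4-type site, was found in 3 of 7 (Cyp3a11, Cyp3a16 and Cyp3a41a) and in 0.381% of all windows. In Cyp3a11 that match began 109 bases before the RefSeq start, in bases that GENCODE places inside the gene and that are not printed above. None of the 7 windows held, on either strand, AGGTCA or AGTTCA repeated in the same direction with 3 bases between, TGAACT and AGGTCA with 6 bases between, or the D-box TTATGTAA, and none of the marked matches overlapped another.

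Each library held 14275793 to 20815066 counts on the reverse strand of annotated genes, with 23.5 to 37.9% of fragments unmapped and 6.69 to 8.92% at several places. VDS6 stood apart in having 11.1% of its fragments matched to no gene on the reverse strand, against 2.52 to 4.94% in the others. All 10 hepatocyte markers were detected in both diets and both sets, with a summed level of 72134 to 99977 CPM (counts scaled to the size of the library) in the recorded and 83451 to 100572 CPM in the unrecorded livers.

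Cyp3a11 carried most of the family's transcripts in every liver, and the total differed between the sets. The 7 members together took 0.424 to 0.701% of all gene counts in the recorded livers and 0.0880 to 0.255% in the unrecorded. Within the family, Cyp3a11 made up 88.0 to 92.3% of the counts in the recorded and 67.0 to 87.4% in the unrecorded livers. Ranked by counts among all genes, Cyp3a11 stood between 14th and 32nd in the recorded livers and between 47th and 188th in the unrecorded. Cyp3a13 made up 1.81 to 2.83% of the family in the recorded and 5.35 to 13.9% in the unrecorded livers, while its own level, given below, overlapped between the sets.

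**Figure D1:**
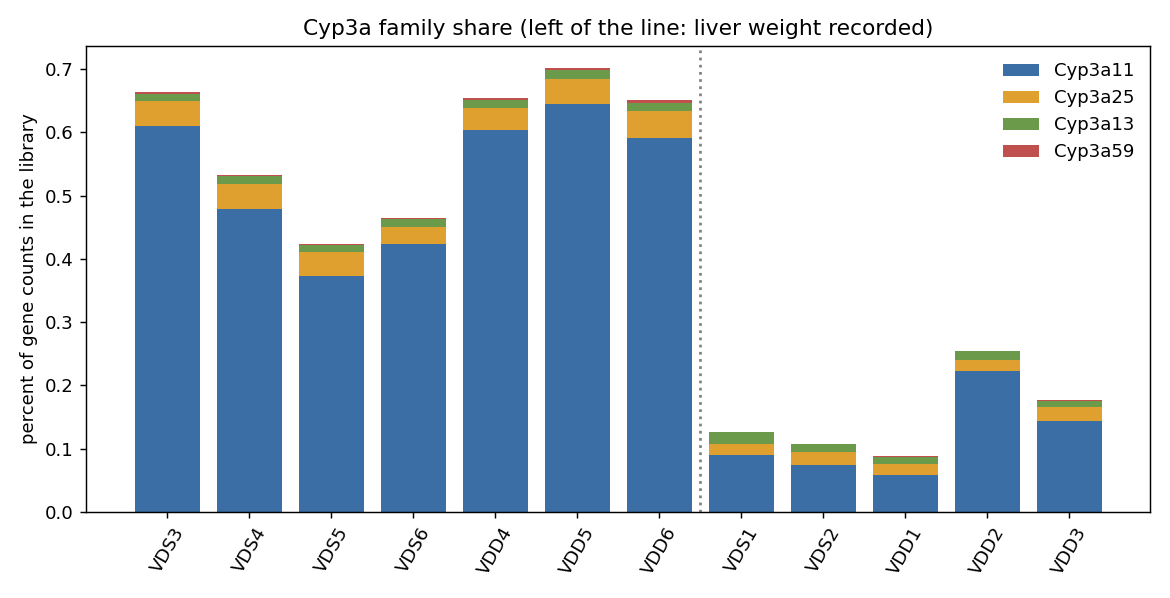
Share of all gene counts taken by the family in each of 12 livers, in percent, as stacked bars of the 4 members past the count filter. The 7 livers left of the dotted line (liver weight recorded) lie between 0.424 and 0.701%, all above the 5 on its right (0.0880 to 0.255%), and Cyp3a11 forms most of every bar.

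Per kilobase of the longest protein-coding transcript, the order of the 4 members was the same in both sets. The recorded livers had 2257 ± 402 CPM per kb of Cyp3a11, 183 ± 19.4 of Cyp3a25, 43.3 ± 2.98 of Cyp3a13 and 13.9 ± 2.32 of Cyp3a59 (SD, n = 7). In the unrecorded livers the values were 497 ± 249, 94.8 ± 17.3, 44.9 ± 9.17 and 3.46 ± 1.31 CPM per kb (SD, n = 5). No neighbours in this order overlapped in either set. The longest Cyp3a11 transcript has 2344 bases and all its annotated exons together 5093, and per kilobase of all exons Cyp3a11 came to 1039 and 229 CPM per kb, still first in both sets.

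Cyp3a11, the main adult enzyme, was higher in every recorded than in every unrecorded liver. Its levels in the recorded livers were 5996, 6324 and 5671 CPM in VDD4, VDD5 and VDD6 and 5983, 4732, 3788 and 4545 CPM in VDS3, VDS4, VDS5 and VDS6. In the unrecorded livers they were 594, 1953 and 1599 CPM in VDD1, VDD2 and VDD3 and 926 and 758 CPM in VDS1 and VDS2. The highest unrecorded liver, VDD2, lay well under the lowest recorded one, VDS5. With diet in the model, the log2-fold change of recorded against unrecorded was 2.30 (SE 0.25, a 4.91-fold difference, edgeR quasi-likelihood test, adjusted p = 0.000443 over 12453 genes).

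Cyp3a59, the gene next to Cyp3a25, showed a similar size of difference at a far lower level. The recorded livers had 28.7, 34.3 and 32.5 CPM in VDD4, VDD5 and VDD6 and 25.2, 27.6, 21.3 and 24.1 CPM in VDS3, VDS4, VDS5 and VDS6. The unrecorded livers had 6.88, 7.83 and 10.7 CPM in VDD1, VDD2 and VDD3 and 4.10 and 4.90 CPM in VDS1 and VDS2. The sets did not overlap, and the log2-fold change was 2.15 (SE 0.15, 4.44-fold, edgeR adjusted p = 8.48e-06).

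Cyp3a25, an adult hepatic form, was also higher in the recorded livers, by less. Its levels were 335, 387 and 404 CPM in VDD4, VDD5 and VDD6 and 383, 390.4, 372 and 293 CPM in VDS3, VDS4, VDS5 and VDS6. In the unrecorded livers they were 166, 155 and 244 CPM in VDD1, VDD2 and VDD3 and 184 and 200.02 CPM in VDS1 and VDS2. Again every recorded liver exceeded every unrecorded one. The log2-fold change was 0.95 (SE 0.12, 1.94-fold, edgeR adjusted p = 0.00173), which passed the test but not the study's threshold of 1 for differentially expressed genes (DEGs).

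Cyp3a13, the member outside the cluster, did not separate the sets. The recorded livers had 137, 139.9 and 134 CPM in VDD4, VDD5 and VDD6 and 118, 121, 122 and 125 CPM in VDS3, VDS4, VDS5 and VDS6. The unrecorded livers had 119, 119.5 and 114 CPM in VDD1, VDD2 and VDD3 and 179.8 and 131 CPM in VDS1 and VDS2. The log2-fold change was -0.057 (SE 0.11, edgeR adjusted p = 0.882).

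**Figure D2:**
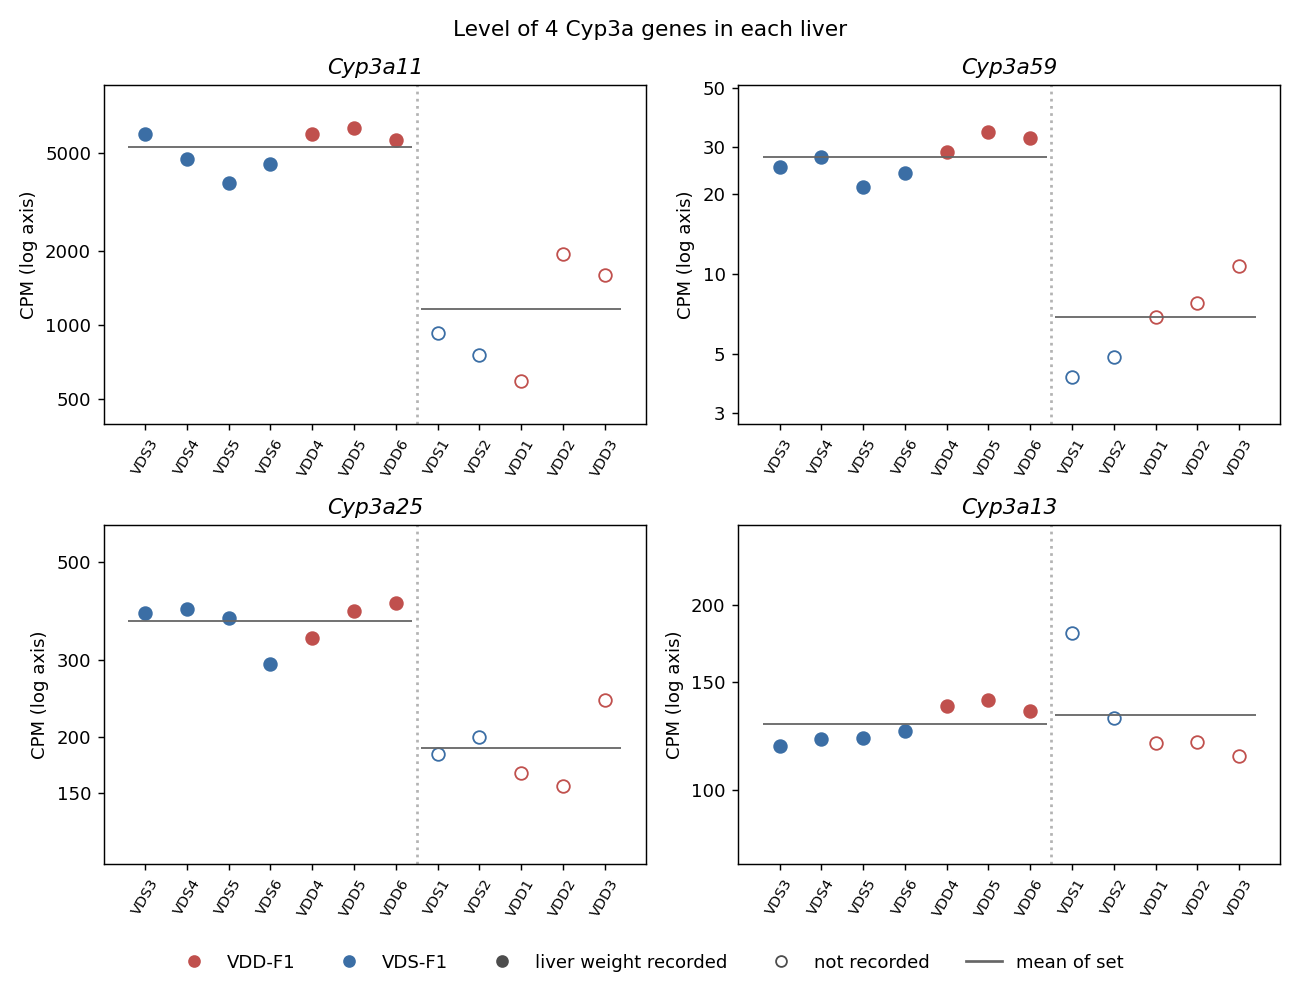
Level of the 4 members past the count filter in each liver, in CPM on log axes, coloured by maternal diet, filled where a liver weight was recorded and open where it was not, with the mean of each set as a line. Cyp3a11, Cyp3a59 and Cyp3a25 are higher in all 7 filled than in all 5 open points, and Cyp3a13 is not.

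Of the 4 tested members, 3 were higher in the recorded livers at an adjusted p under 0.05, where 0.899% of all 12453 genes were. As DEGs, 2 members were higher, where 0.281% of all genes were. Without any overlap of CPM, 3 members were higher, and 0.891% of all genes. The median log2-fold change was 1.55 over the 4 members and -0.011 over all genes tested. An exact permutation test of each member, two-sided, with the set permuted within the diets (300 splits), gave p = 0.00333 for Cyp3a11, Cyp3a59 and Cyp3a25 alike, the smallest p it can give, and p = 0.69 for Cyp3a13. The same difference was seen within each diet. In the VDD-F1 mice the log2-fold change was 2.12 (SE 0.33) for Cyp3a11, 1.92 (SE 0.17) for Cyp3a59 and 0.997 (SE 0.17) for Cyp3a25, all higher at an edgeR adjusted p under 0.05 (0.731% of all genes). In the VDS-F1 mice the values were 2.4999 (SE 0.38), 2.45 (SE 0.20) and 0.91 (SE 0.19), of which Cyp3a25 had an edgeR adjusted p of 0.0511 and the other 2 passed (0.249% of all genes).

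The scaling of each library to its hepatocyte markers left these values nearly as they were. Relative to the summed counts of the 10 markers, of which Alb (albumin) made up 75.3 to 79.9%, recorded exceeded unrecorded livers by 2.44 (Cyp3a11), 2.25 (Cyp3a59) and 1.02 (Cyp3a25) on the log2 scale, each with an exact permutation p = 0.00333, and Cyp3a13 differed by -0.00126 (p = 0.993). In bulk tissue, fewer cells of a type and less RNA per cell cannot be told apart. Of the 10 hepatocyte markers 1, Tdo2, was itself higher in the recorded livers, by 0.61 on the log2 scale (edgeR adjusted p = 0.0263), a call lost in 7 of 20 alternatives. Of 9 endothelial, 11 macrophage, 11 stellate cell, 6 cholangiocyte, 3 lymphocyte and 1 dendritic cell or neutrophil markers tested, none passed between the sets with edgeR, and at an unadjusted p under 0.05 there were 3 endothelial markers, all higher in the recorded livers, and 2 macrophage, 1 stellate cell and 1 lymphocyte markers, all lower, where 13.9% of all genes were under it in either direction. The fitted values were positive for 8 of 9 endothelial markers (median 0.22 on the log2 scale) and negative for 11 of 11 macrophage (median -0.39), 10 of 11 stellate cell (median -0.23) and 5 of 6 cholangiocyte markers (median -0.33). Summed levels in recorded and unrecorded livers were 442 to 540 and 378 to 471 CPM for endothelial markers, 237 to 384 and 268 to 582 CPM for macrophage markers, 489 to 759 and 488 to 1175 CPM for stellate cell markers, 28.2 to 73.0 and 24.0 to 118 CPM for cholangiocyte markers, 5.97 to 13.5 and 7.005 to 43.8 CPM for lymphocyte markers, and 0.962 to 12.8 and 3.11 to 20.8 CPM for dendritic cell and neutrophil markers. Ly6g was at 0 in all recorded livers. The highest stellate cell, cholangiocyte, macrophage and dendritic cell and neutrophil sums of all 12 livers were those of 1 unrecorded liver, VDD2, without which the set difference was 2.48 for Cyp3a11, 2.16 for Cyp3a59 and 0.89 for Cyp3a25 on the log2 scale, all 3 with an edgeR adjusted p under 0.05. Of 8 periportal hepatocyte genes, 3 were higher in the recorded livers at an adjusted p under 0.05 (Cyp2f2, Hal and Gls2, by 0.75, 0.83 and 0.75 on the log2 scale, calls lost in 0, 11 and 1 of 20 alternatives), and of 10 pericentral genes 1, Glul, was lower, at -1.29 (edgeR adjusted p = 0.0499, 1.56% of all genes lower), a call lost in 14 of 20 alternatives. The part of these zonal and cell type markers in the Cyp3a difference was not tested.

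The members moved by different amounts. The ratio of Cyp3a11 to Cyp3a25 within a liver was 3.84 ± 0.28 (SD, n = 7) on the log2 scale in the recorded and 2.49 ± 0.74 (SD, n = 5) in the unrecorded livers, and VDD2 alone among the unrecorded reached the recorded range. The mean difference over the diets was 1.43 (exact permutation p = 0.00333, adjusted p = 0.008 over 12 ratio tests). Cyp3a25 and Cyp3a59, the pair with nearly the same coding and upstream sequence, did not move alike either: their log2 ratio was 3.74 ± 0.23 in the recorded and 4.85 ± 0.53 in the unrecorded livers without overlap, a difference of -1.23 (exact permutation p = 0.00333, adjusted p = 0.008). The ratio of Cyp3a11 to Cyp3a59 was 7.57 ± 0.17 and 7.34 ± 0.60, with the unrecorded livers spread on both sides of the recorded ones, and its difference of 0.20 did not pass (exact permutation p = 0.49). The spread of that ratio came mainly from VDD1, at 6.43, and VDD2, at 7.96. Cyp3a25 and Cyp3a59 share 6.05% and 5.61% of their 100-base stretches, which a read within them could not tell apart.

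**Figure D3:**
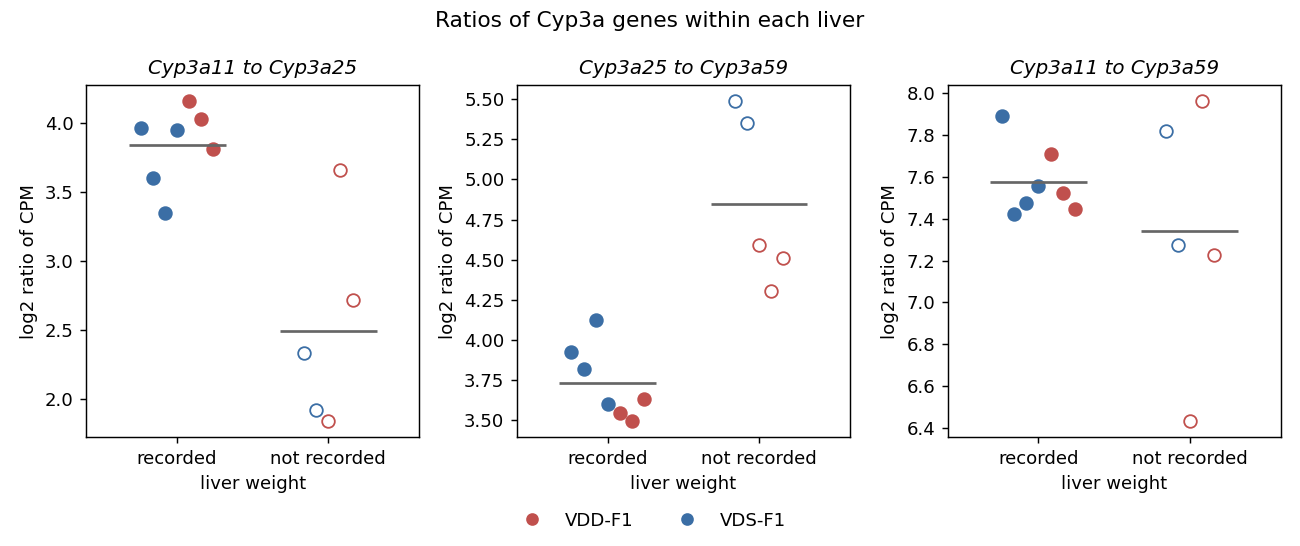
Log2 ratio of CPM between pairs of members within each liver, by whether a liver weight was recorded, coloured by maternal diet, with the mean of each set as a line. Cyp3a11 to Cyp3a25 averages 3.84 in the recorded and 2.49 in the unrecorded livers, Cyp3a25 to Cyp3a59 averages 3.74 and 4.85, and Cyp3a11 to Cyp3a59 overlaps.

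By maternal diet alone, the question the study was designed for, no member of the family passed the test. The log2-fold change of VDD-F1 against VDS-F1 was 0.095 (SE 0.58, edgeR adjusted p = 0.962) for Cyp3a11, 0.18 (SE 0.52, adjusted p = 0.906) for Cyp3a59, -0.11 (SE 0.27, adjusted p = 0.889) for Cyp3a25 and -0.060 (SE 0.11, adjusted p = 0.831) for Cyp3a13. None of the 4 had an unadjusted p under 0.05, and none was called by DESeq2 or limma. Of all genes, 0.0402% were DEGs and 15.8% had an unadjusted p under 0.05. Mean levels were 3689 ± 2575 CPM of Cyp3a11 in VDD-F1 and 3455 ± 2144 CPM in VDS-F1, and 20.2 ± 13.0 and 17.9 ± 10.6 CPM of Cyp3a59 (SD, n = 6). Both diets contain recorded and unrecorded livers, and each group spanned nearly the whole range of the gene. Cyp3a25 had 282 ± 109 and 304 ± 93.5 CPM and Cyp3a13 127 ± 11.1 and 133 ± 23.5 CPM. The summed hepatocyte markers came to 83451 to 100572 CPM in VDD-F1 and 72134 to 89801 CPM in VDS-F1, with overlap. None of the 10 passed by diet over all mice or had an unadjusted p under 0.05 with edgeR. Within the recorded mice the sums did not overlap, at 93970 to 99977 CPM in VDD-F1 and 72134 to 80237 CPM in VDS-F1. Of the 10 markers, 7 had positive and 3 negative values there (median 0.19), and none passed. Within the unrecorded mice the sums overlapped (83451 to 100572 and 88733 to 89801 CPM), with 2 positive and 8 negative values (median -0.14). Over all mice and relative to the marker sum, Cyp3a13 was lower in VDD-F1 by a log2 difference of -0.25 (exact permutation p = 0.00433), against -0.048 (p = 0.751) without that scaling. Alb, most of the sum, was itself at 0.24 by diet (edgeR adjusted p = 0.379), and none of the other members passed on that scale.

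**Figure D4:**
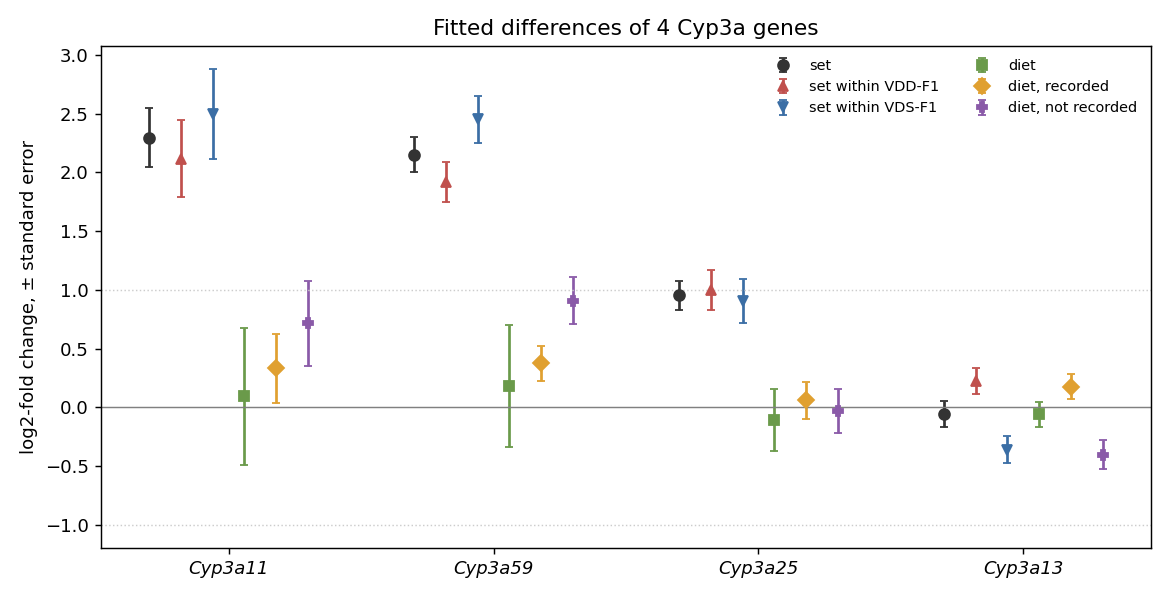
Fitted log2-fold change with its standard error for the 4 tested members, by set (all mice, then within each diet) and by diet (all mice, then within each set); dotted lines mark -1 and 1. The set difference is 2.30 for Cyp3a11, 2.15 for Cyp3a59 and 0.95 for Cyp3a25, and the diet difference over all mice lies between -0.11 and 0.18 for the 4 genes.

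Within the sets, Cyp3a59 was higher in VDD-F1 on the CPM scale. The 3 recorded VDD-F1 livers (28.7 to 34.3 CPM) all exceeded the 4 recorded VDS-F1 livers (21.3 to 27.6 CPM), and the 3 unrecorded VDD-F1 livers (6.88 to 10.7 CPM) exceeded the 2 unrecorded VDS-F1 livers (4.10 and 4.90 CPM). Of all genes tested, 1.51% were higher in VDD-F1 in both sets without overlap in this way. The log2-fold change was 0.37 (SE 0.15, edgeR adjusted p = 0.200436) in the recorded and 0.91 (SE 0.20, adjusted p = 0.277) in the unrecorded mice, and 0.57 (SE 0.14, adjusted p = 0.0733) over all mice with set in the model. An exact permutation test with diet permuted within the sets gave a mean difference of 0.60 and p = 0.00286, the smallest its 350 splits can give. The difference in Cyp3a59 did not pass the threshold adjusted over 12453 genes in any of these 3 fits, at which 2.02% of all genes passed in the recorded and 0.0321% in the unrecorded mice. In the unrecorded mice it passed with DESeq2 (adjusted p = 0.0183), and with no filter on low counts both Cyp3a59 (adjusted p = 0.00499) and Cyp3a11 (0.71, adjusted p = 0.0315) passed. In the recorded mice the summed hepatocyte markers, given above, were also higher in VDD-F1 without overlap. Relative to that sum, Cyp3a59 overlapped between the diets in the recorded livers and stayed higher without overlap in the unrecorded VDD-F1 livers. The diet difference within the sets was not tested on that scale.

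Cyp3a11 leaned the same way with overlap. VDD1 had the lowest Cyp3a11 level of all 12 livers and VDD2 and VDD3 the highest of the unrecorded, and the log2-fold change by diet was 0.72 (SE 0.36, edgeR adjusted p = 0.655) there and 0.33 (SE 0.29, adjusted p = 0.595) in the recorded mice. The exact permutation test within the sets gave a difference of 0.45 and p = 0.22. Cyp3a25 differed by 0.061 (SE 0.16) and -0.029 (SE 0.19), with an exact permutation p = 0.991 within the sets. The log2 ratio of Cyp3a25 to Cyp3a59 was lower in VDD-F1 by a mean of -0.63 within the sets (exact permutation p = 0.00571, adjusted p = 0.0114 over the 12 ratio tests).

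On the CPM scale, Cyp3a13 differed by diet in opposite directions in the sets. In the recorded mice all 3 VDD-F1 livers (134 to 139.9 CPM) lay above all 4 VDS-F1 livers (118 to 125 CPM), and in the unrecorded mice all 3 VDD-F1 livers (114 to 119.5 CPM) lay below both VDS-F1 livers (131 and 179.8 CPM). The log2-fold changes were 0.18 (SE 0.10, edgeR adjusted p = 0.404) and -0.40 (SE 0.12, adjusted p = 0.429). Their difference of 0.58 (SE 0.16) had an unadjusted p of 0.00325 and an edgeR adjusted p of 0.277, so it did not pass over all genes, of which 1.24% showed opposite directions without overlap. None of the other tested members passed this test of the difference, which 0.0883% of all genes passed at an adjusted p under 0.05. Relative to the summed hepatocyte markers, Cyp3a13 was lower in VDD-F1 without overlap in both sets, so the opposite directions hold in CPM only. In the recorded mice that sum was 93970 to 99977 CPM in VDD-F1 and 72134 to 80237 CPM in VDS-F1. The diet difference within the sets was not tested on that scale. In the unrecorded mice the log2-fold change ranged from -0.61 to -0.16 when 1 mouse was left out. A gene on the same strand, Gm15502, overlaps Cyp3a13.

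Cyp3a16, Cyp3a41a and Cyp3a44 were close to silent in these male livers. Over all 12 libraries Cyp3a16 had 7 counts, Cyp3a41a 2 and Cyp3a44 20, against 724981 for Cyp3a11, 59390 for Cyp3a25, 26617 for Cyp3a13 and 3877 for Cyp3a59. A count of 0 allows up to 3 counts, or 0.144 to 0.210 CPM by library, an interval that covers counting error only. Cyp3a16 had counts in 3 libraries and Cyp3a41a in 2, none above 3 counts. Cyp3a44 was above this limit only in VDS6, with 10 counts (0.715 CPM). That library had the largest share of fragments matched to no gene on the reverse strand. Cyp3a41a shares 90.82% of its 100-base stretches with Cyp3a41b or Cyp3a44, so its reads could largely be counted for neither copy, and its level is uncertain for that reason. Cyp3a44 and Cyp3a16 share only 5.37% and 0.123% of theirs with another family transcript. Of the 4 annotated relatives outside the members, Cyp3a41b had 6 counts, Cyp3a57 had 2, and the pseudogenes Cyp3a61-ps1 and Cyp3a63-ps had 0. Of 16 other female-predominant liver genes listed, 8 were tested, and none passed by set or by diet over all mice with edgeR (0 and 3 at an unadjusted p under 0.05). Cyp2a4, a female-predominant steroid hydroxylase, had a log2-fold change of 7.18 by diet (SE 1.30, edgeR adjusted p = 0.0627, a call gained in 6 of 21 alternatives) and passed within the recorded mice (7.09, SE 1.55, adjusted p = 0.0353, a call lost in 11 of 20 alternatives). Ntrk2, a neurotrophin receptor, passed there too (3.23, edgeR adjusted p = 0.0243, lost in 7 of 20). No female-predominant Cyp3a gene reached a mean of 0.21 CPM in either diet.

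Some other target genes of Pxr and Car were higher in the recorded livers too. They belong to a list of 24 genes that was chosen with earlier results of these data known, so its share is a description. Of 24 genes in that list, 21 were tested, of which 6 were higher at an adjusted p under 0.05, where 0.899% of all genes were, none was lower and 15 did not pass. The median log2-fold change was 0.35. Ces2a, a carboxylesterase that cleaves ester and amide drugs, had 402.5 ± 38.7 CPM (SD, n = 7) in the recorded and 134 ± 35.4 CPM (SD, n = 5) in the unrecorded livers, without overlap (1.55, SE 0.11, edgeR adjusted p = 8.48e-06). Cyp2c55, a P450 inducible through Pxr and Car, had 7.78 to 24.9 and 1.65 to 6.37 CPM (2.47, SE 0.28, adjusted p = 0.000598). The remaining 4, named because they passed, were Cyp2b10, the classical Car target, at 3.20 (SE 0.67), the glutathione transferases Gsta2 at 2.76 (SE 0.49) and Gstm1 at 1.004 (SE 0.14), and Papss2, which makes the sulfate donor, at 0.50 (SE 0.12). Cyp2b10 was present at 0.833 to 5.70 CPM in the recorded and 0 to 1.77 CPM in the unrecorded livers, and VDD2 was again the highest of the unrecorded. The call for Cyp2b10 was lost in 6 and that for Papss2 in 13 of 20 alternative analyses, with edgeR adjusted p-values up to 0.144 and 0.133. Without VDD2, Cyp2b10 was at 4.80 and Gsta2 at 3.63 on the log2 scale, and the call for Gsta2 was lost in 1 alternative. Near-identical glutathione transferase copies can share reads.

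By diet over all mice the same list gave no call with edgeR, while at an unadjusted p under 0.05 there were 2 higher and 7 lower in VDD-F1, where 15.8% of all genes were in either direction. The 4 with the smallest p were Cyp2c37 (-2.08, SE 0.44), Cyp2c50 (-1.48, SE 0.35), Ces2c (-1.11, SE 0.24) and Ugt1a1 (-0.72, SE 0.16), with edgeR adjusted p-values from 0.0812 to 0.0883, and each gained the call in 4 of 21 alternatives. None of these 4 had an unadjusted p under 0.05 between the sets. Of the 21, 9 were nominally higher and 12 lower in VDD-F1, with a median of -0.17. Within the recorded mice these same 4 of 21 genes passed, all lower in VDD-F1, where 2.02% of all genes passed in either direction. At an unadjusted p under 0.05 there were 9 lower and 4 higher, the latter being Cyp2b10 (1.598), Cyp2c55 (1.15), Gsta1 (1.67) and Gstm3 (1.40), with edgeR adjusted p-values from 0.0831 to 0.256. Cyp2c37, a Car-inducible P450, had 27.9, 21.7 and 23.03 CPM in VDD4, VDD5 and VDD6 against 178 to 222 CPM in the recorded VDS-F1 livers (-2.99, SE 0.51, edgeR adjusted p = 0.0173), and Ces2c, a carboxylesterase, had 23.4, 17.5 and 16.3 against 40.2 to 70.04 CPM (-1.51, SE 0.21, adjusted p = 0.00753). Cyp2c50 was at -1.99 and Ugt1a1, which glucuronidates bilirubin, at -0.93. These calls were lost in 3 (Cyp2c37), 2 (Ces2c), 10 (Cyp2c50) and 7 (Ugt1a1) of 20 alternatives. In those same livers Cyp3a11 and Cyp3a59 were at 0.33 and 0.37. Zonal and cell type markers also differed in that comparison. The summed hepatocyte markers, given above, were higher in VDD-F1 there without overlap. Of 10 pericentral genes, all 10 had negative values (median -0.77) and 3 passed with edgeR, Cyp1a2 at -1.48, Cyp2e1 at -1.27 and Glul at -1.73 (calls lost in 3, 7 and 6 of 20 alternatives). Of 11 stellate cell markers, Col3a1 was higher (2.16) and Ecm1 lower (-1.22) in VDD-F1, and of 9 endothelial markers Stab2 was lower (-0.48), with calls lost in 12, 2 and 7 of 20 alternatives. By diet over all mice Cyp1a2 was the pericentral gene to pass (-1.35, edgeR adjusted p = 0.0269, lost in 7 of 21 alternatives). Their part in the values of the target genes was not tested.

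**Figure D5:**
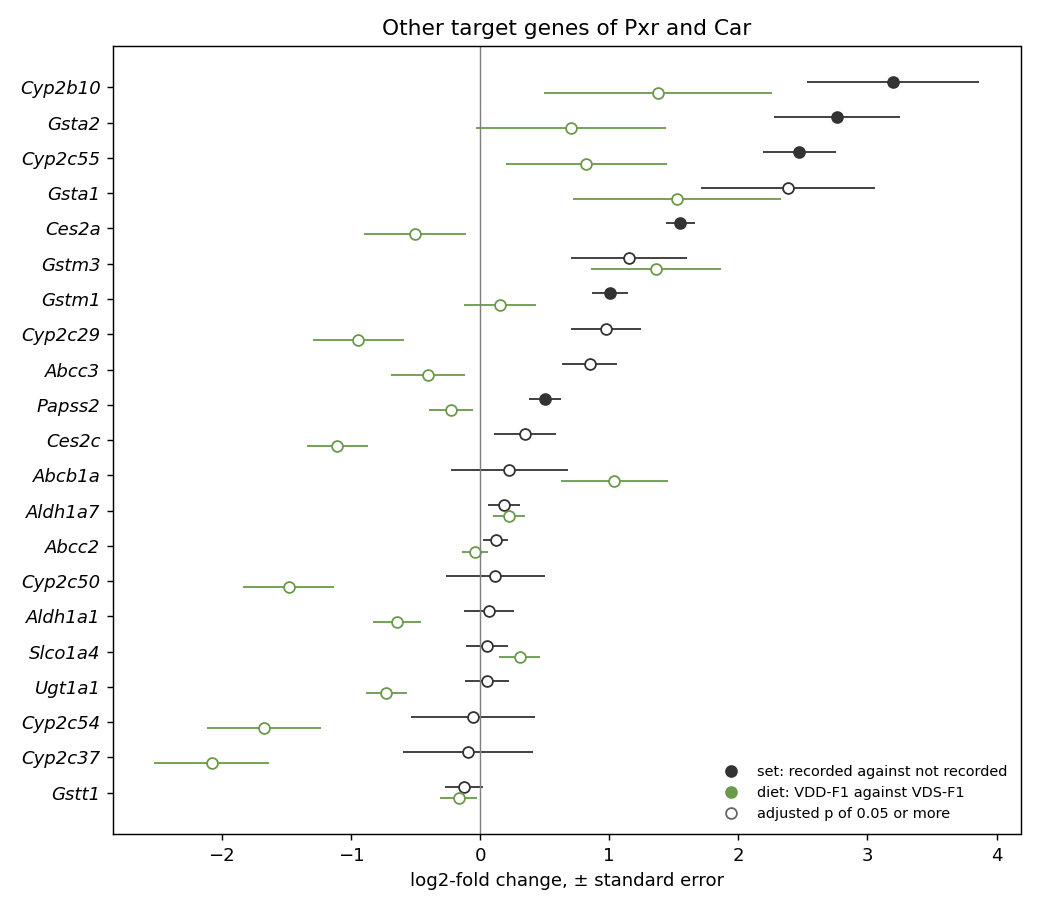
Fitted log2-fold change with its standard error for 21 other target genes of Pxr and Car, by set (dark) and by diet (green), filled where the adjusted p is under 0.05. Cyp2b10, Gsta2, Cyp2c55, Ces2a, Gstm1 and Papss2 are filled in the set comparison, all on the right of 0, and no point is filled by diet.

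No receptor or factor that acts on Cyp3a genes passed the test between the sets. Of 17 listed, 16 were tested with edgeR, 1 had an unadjusted p under 0.05 and none passed, with a median log2-fold change of 0.020. Nr1i2, which encodes Pxr, was at 0.19 (SE 0.16, edgeR adjusted p = 0.665) and is named for its role, after its values were seen. The smallest p belonged to Ppargc1a, a coactivator induced by fasting, at -0.95 (SE 0.31, adjusted p = 0.157), which gained the call in 3 of 20 alternatives (edgeR adjusted p = 0.0428 at the lowest over leaving out each mouse). By diet over all mice none passed either. Nr1i3, which encodes Car, was at -0.83 (SE 0.35, adjusted p = 0.273) over all mice, a call gained in 1 of 21 alternatives, and at -1.68 (SE 0.38, edgeR adjusted p = 0.0417) in the recorded mice, a call lost in 10 of 20 alternatives. The recorded VDD-F1 livers had 14.0, 13.8 and 15.2 CPM of Nr1i3 and the recorded VDS-F1 livers 39.06 to 61.3 CPM, without overlap. Its lowest level of all, 11.6 CPM, was in VDD2, which had the highest Cyp3a11 of the unrecorded livers and less than any recorded one. Hnf4a, a hepatocyte factor that acts on Cyp3a promoters, was at -0.29 by diet (SE 0.13, adjusted p = 0.301). Vdr averaged 0.417 counts per library and was not tested, and the other vitamin D genes tested, 4 of 8, passed in neither comparison. Among 14 clock and PAR bZip genes, which drive daily rhythms of drug metabolism, none passed by set or by diet over all mice with edgeR (1 and 2 at an unadjusted p under 0.05), and Hlf and Nr1d1 were lower in VDD-F1 within the recorded mice, at -0.82 and -1.67, calls lost in 5 and 7 of 20 alternatives. Over all mice Hlf gained the call in 3 of 21 alternatives. Nr1d1 is named because it passed within the recorded mice. Of the 14 genes, 9 had negative and 5 positive values by diet within the recorded mice (median -0.77). Levels of some differed widely between single livers, with 49.8 to 227 CPM of Nr1d1 and 22.3 to 115 CPM of Tef. The time of day at which livers were taken is not given in the sources used here.

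Of 15 P450 partners and genes of haem synthesis, Pgrmc1, a haem-binding protein that can associate with P450 enzymes, was higher in the recorded livers by 0.45 (SE 0.091, edgeR adjusted p = 0.0198, a call lost in 3 of 20 alternatives). Por, the electron donor of all the microsomal P450 enzymes, was at 0.63 (SE 0.22, adjusted p = 0.176) and gained the call in 2 of 20 alternatives. None passed by diet over all mice, and within the recorded mice Alad, an enzyme of haem synthesis, was lower in VDD-F1 (-0.50, edgeR adjusted p = 0.0296, lost in 7 of 20 alternatives). Of 22 male-predominant liver genes tested, 2 were higher (Gstp1 by 0.98 and Ugt2b1 by 0.61) and Moxd1 was lower (-5.98) in the recorded livers, where 0.899% of all genes were higher and 1.56% lower. The call for Gstp1 was lost in 6 and that for Ugt2b1 in 8 of 20 alternatives. Of 12 genes of growth hormone signalling, which sets sex differences in hepatic P450 genes, 2 were higher, Prlr by 0.73 (SE 0.16) and Igfals by 0.49 (SE 0.11), calls lost in 7 and 8 of 20 alternatives. By diet over all mice, Mup12, a male-predominant urinary protein, was the 1 gene to pass in these 2 lists (-3.17, SE 0.46, edgeR adjusted p = 0.0269), a call lost in 7 of 21 alternatives. Of the 22 male-predominant genes, 20 had negative values by diet (11 at an unadjusted p under 0.05, median -0.53), and all 8 tested female-predominant genes had positive ones (median 0.85). Within the recorded mice, where 2.02% of all genes passed, Mup12, Mup11, Mup7 and Susd4 passed, all lower in VDD-F1 (-4.15, -4.18, -5.38 and -4.75, calls lost in 1, 7, 4 and 4 of 20 alternatives), and within the unrecorded mice Moxd1 did (-5.39, lost in 2). Reads of near-identical Mup copies can be shared.

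Cyp3a11 and Cyp3a59 were among the most variable genes of these livers, with an SD of log2 CPM over the 12 libraries of 1.28 (rank 95 of 12453) and 1.08 (rank 172). Cyp3a25 followed at 0.53 (rank 1636), and Cyp3a13, at 0.18, was among the steadier genes (rank 9484). The genes with the nearest pattern were found by the root mean square difference of log2 CPM over 12 libraries, after centring each gene on its own mean. For Cyp3a11 these were Csad (0.39), the taurine-synthesis enzyme, then Cyp3a59 (0.40) and Cyp2c55 (0.49). For Cyp3a59 they were Csad (0.27), Cyp3a11 (0.40) and 9130409I23Rik (0.43). For Cyp3a25 they were Ugt2b5 (0.17), a glucuronosyltransferase, Aox3 (0.18), an aldehyde oxidase, and Keg1 (0.18), an acyltransferase of glycine conjugation. Csad ranged from 45.9 to 461 CPM, with a fitted set difference of 2.14 (SE 0.18), and Ugt2b5, Aox3 and Keg1 had set differences of 0.77, 0.84 and 1.12 on the log2 scale. These likenesses are a description over the same 12 livers.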

How the data were processed

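RNA from 12 livers, 1 library per mouse, was depleted of ribosomal RNA, and per the labels and methods the authors aligned the reads with STAR to mm10 (GRCm38) with GENCODE M15. The deposited values are whole-number counts of fragments per gene, unstranded and for each strand; those on the reverse strand were used, which held 92.7 to 95.8% of the stranded gene counts. Fragments that were unmapped, at several places or matched to no gene on the reverse strand stayed out of library sizes.

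Counts were tested with the quasi-likelihood method of edgeR 4.0.16 (R 4.3.3, TMM factors, Benjamini-Hochberg adjustment) on the 12453 genes that averaged 12 counts or more per library, with diet, or diet and set, or the 4 groups of diet by set in the model. DEGs were genes that changed beyond 1 on the log2 scale, in either direction, at an adjusted p under 0.05. CPM used TMM library sizes, and log2 CPM of single genes had a pseudocount of 0.5 CPM. Log2 ratios, between members or to the summed hepatocyte markers, had none. Single members were tested by exact permutation. The fits by diet with edgeR, DESeq2 and limma were tested on simulated counts. Alternatives were DESeq2 1.42.0, limma 3.58.1, other scalings and filters, unstranded counts and leaving out each mouse. Coordinates are from GENCODE M21 on the same build and 52489 of 52636 genes matched. Sets come from the study, outside the labels. The members, sets and lists were chosen with earlier results of these data known. Beside the members, up to 4 genes a list with the smallest p by diet and 2 by set were named, and 3 genes nearest in pattern to each of the 3 most variable members. Replicate numbers were not treated as pairs.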

Additional observations from a re-analysis of the deposited data

Results flagged for a closer look

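Cyp3a13 in VDS1, at 179.8 CPM, stood far above the other 5 VDS-F1 livers and above the other 4 unrecorded livers. The gap to the next liver was 0.785 and 0.736 of the whole range of these groups. Of 25 groups of values examined in this way, 2 held such a library, both times this one, where chance gives about 1 in 20. Without VDS1, the diet difference of Cyp3a13 turned from -0.060 to 0.046 and the set difference from -0.057 to 0.10 on the log2 scale, neither passing the test.

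On the CPM scale, the diet difference of Cyp3a13 had opposite signs in the recorded and the unrecorded mice, without overlap in either. The difference between them, 0.58 (SE 0.16), was tested and had an edgeR adjusted p of 0.277. It ranged from 0.34 to 0.79 when 1 mouse was left out. Relative to the summed hepatocyte markers, Cyp3a13 was lower in VDD-F1 without overlap in both sets, and the difference was not tested on that scale.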

How the results depend on the processing

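Between the sets, Cyp3a11, Cyp3a59 and Cyp3a25 were higher at an adjusted p under 0.05 in all 20 alternatives, with edgeR, DESeq2 and limma, and over leaving out each mouse at 2.13 to 2.48, 2.04 to 2.27 and 0.89 to 1.05 on the log2 scale. Cyp3a25 passed the fold threshold in some of these, so 2 to 3 members were DEGs. Cyp3a13 (-0.11 to 0.10) turned to 0.10 without VDS1. By diet no member passed in any of 21 alternatives, and signs were unstable. Leaving out 1 mouse gave -0.13 to 0.32 for Cyp3a11, -0.093 to 0.046 for Cyp3a13, -0.24 to 0.016 for Cyp3a25 and -0.046 to 0.36 for Cyp3a59. With set as a covariate Cyp3a25 was at 0.024. With diet permuted within the sets, the mean log2 difference was 0.60 for Cyp3a59 (exact permutation p = 0.00286) and 0.0046 for Cyp3a25. Scaled to the summed hepatocyte markers, Cyp3a11 was at -0.17 and Cyp3a13 at -0.25 (exact permutation p = 0.00433). Within the recorded mice Cyp3a25 ranged from -0.025 to 0.14, within the unrecorded from -0.24 to 0.091, and its difference between sets from -0.029 to 0.30 when 1 mouse was left out. In the unrecorded mice Cyp3a59 passed with DESeq2 (0.92) and with no filter (0.90), and Cyp3a11 with no filter (0.71), so 1 and 2 members passed there. The cause of these changes was not tested.

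Over all genes the count of DEGs was less stable. By diet there were 5, against 253 with DESeq2, 13 with limma, 70 with no filter, 21 with set as a covariate and 0 to 260 over leaving out each mouse. By set there were 111, against 202 with no filter, 69 without the diet term and 68 to 178. In the recorded mice there were 154, against 348 with DESeq2, 97 with limma, 590 with no filter, 536 with the set fitted alone and 2 to 478. In the unrecorded mice there were 4, against 44 with DESeq2, 274 with no filter, 0 with the set fitted alone and 2 to 17. The difference between sets gave 10, against 97 with DESeq2, 289 with no filter and 3 to 244.

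With the replicate number as a block, the diet comparison gave 17 DEGs and no Cyp3a member. Same-numbered mice did not deviate together over all genes (correlations of -0.078 to 0.092), and the numbers were not treated as pairs. Such correlations cannot tell whether a number stands for a litter or a batch. With the block the SE was 0.24 for Cyp3a59 and 0.14 for Cyp3a25, against 0.52 and 0.27 without it. Depth limits Cyp3a16, Cyp3a41a and Cyp3a44, where most values are at or under 3 counts.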
